A study of Mus musculus with 6 samples.

Results

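Fibronectin and the matricellular glycoproteins are secreted proteins of the extracellular matrix, and 10 of their genes, out of 19730 rows in the table, were examined in mouse mesangial cells with and without TGF-β1. The genes were taken by symbol: Fn1, Postn, Tgfbi, Tnc, Tnxb, Thbs1, Thbs2, Thbs3, Sparc and Spp1, and each matched 1 row. RNA-Seq was performed on 3 Control and 3 TGF-β1 libraries. All were primary mesangial cells between passages 3 and 6, in Dulbecco's Modified Eagle Medium with 25.5 mM glucose (high glucose) and 20% fetal bovine serum, and TGF-β1 was given at 10 ng/ml over 72 h to the treated group only. The cells were therefore in high glucose in both groups. Nothing in the labels says whether the replicates came from separate animals or cultures, so the p-values measure the spread between these libraries, which may be technical.

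Fibronectin is a large adhesive glycoprotein that cells assemble into fibrils on which collagen is then deposited, and it binds the integrin of the α5 and β1 chains. Matricellular proteins are secreted into the matrix but act less as scaffolds than as modulators: they bind integrins, growth factors and collagens and change how cells attach, migrate and respond to signals. In the kidney, mesangial cells hold the glomerular capillaries together, and expansion of their matrix is a hallmark of diabetic nephropathy, in which TGF-β1 is a main driver.

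Of the 10 genes, 5 were upregulated with TGF-β1 (Fn1, Postn, Tnc, Thbs1 and Sparc), 2 were downregulated (Spp1 and Tgfbi), and Thbs3 was not called. The other 2, Tnxb and Thbs2, had a mean under 1 FPKM and were not in the main test. FPKM is the number of fragments per kilobase of transcript per M (mega) mapped fragments, so levels of different genes can be compared per length. The test was limma on log2(FPKM + 1) over the 11898 rows with a mean of at least 1 FPKM, with Benjamini-Hochberg adjustment, and an adjusted p under 0.05 was called. Tgfbi passed this filter only through its Control libraries (mean 3.41 FPKM, against 0.611 with TGF-β1). Without the filter it was also called lower (limma adjusted p 0.00216). As background, 24.5% of all tested rows were called higher and 23.6% were called lower, so the counts of 5 and 2 among 8 genes stand beside a table in which calls were frequent in both directions. The groups did not overlap in 7 of the 8 genes, against 59.4% of tested rows. The median log2 change over all tested rows was -0.02. When libraries were scaled to a common sum of protein-coding rows, the log2 change of single rows shifted by a median of -0.18. In that scaling, 2014 rows were called higher and 3951 lower, in place of 2911 and 2810. The 5 and 2 genes kept their direction and their calls in that scaling.

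**Figure D1:**
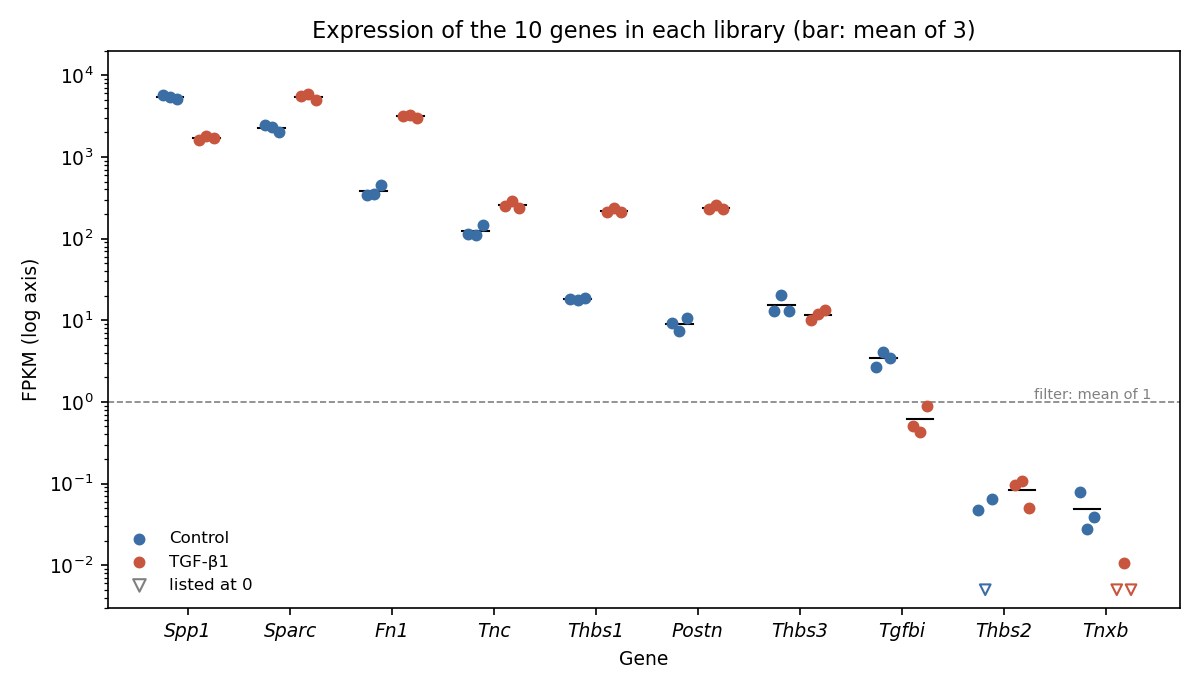
FPKM (log axis) of each of the 10 genes in the 3 Control (blue) and 3 TGF-β1 (red) libraries; each point is 1 library, bars are means of 3 where no library is at 0, and open triangles mark libraries listed at 0. Fn1, Postn, Tnc, Thbs1 and Sparc lie higher in every TGF-β1 library than in any Control library, Spp1 and Tgfbi lie lower, and the groups of Thbs3 and Thbs2 overlap.

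The libraries held 10.1 to 11.1 M fragments each, as worked out from the size of the smallest FPKM steps (M for mega). The treatment was checked on known TGF-β responses, and Ctgf, Smad7, Col1a1 and Acta2 were all called higher, by 3.31-fold (Smad7) to 24.0-fold (Ctgf). Of 9 mesangial cell and pericyte markers, 4 reached a mean of 1 FPKM, among them Acta2, Tagln and Pdgfrb (37.5 FPKM in Control and 29.2 with TGF-β1). The markers Itga8, Des, Thy1 and Pdgfra were all under 1 FPKM in both groups, and Itga8 was listed at 0 in every TGF-β1 library. Endothelial markers were near 0 (5 of 5 measured, summed level 0.361 to 0.468 FPKM in Control and 0.299 to 0.822 with TGF-β1). Podocyte markers summed to 19.7 to 24.9 FPKM in Control and 12.6 to 13.7 with TGF-β1, with Nphs1 under 1 FPKM. The 4 of 7 tubule markers in the table summed to 9.65 to 12.5 FPKM in Control, mostly Aqp1, and to 1.58 to 2.16 FPKM with TGF-β1, mostly Krt18. Aqp1 fell from 10.4 to 0.169 FPKM, whereas Krt18 rose from 0.279 to 1.57 FPKM (limma fit on all rows, adjusted p 0.00143). Krt8 and Cdh1 stayed under 0.1 FPKM on average in both groups and were not called. The podocyte and tubule sums were thus lower with the treatment, the latter through Aqp1, and their part in the changes below was not tested. In bulk RNA, fewer cells of a type and less RNA per cell cannot be told apart.

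Promoter sequence was available for 8 of the 10 genes in a RefSeq table (GRCm38.p6). The 100 bases before the start are shown for 2 genes that rose (Postn and Sparc) and 2 that fell (Tgfbi and Spp1). These are the called genes with a RefSeq start within 30 bases of the start of the transcript named in the FPKM table, and they show what sequence stands beside opposite responses. Each was located on mm9, the build of the study, by a single exact match. Capitals mark matches, on either strand, to CAGAC (the SMAD element, GTCTG when read on the other strand), TATAAA (the TATA box) or TGAGTCA (an AP-1 site), which do not overlap each other here. The windows lie at chr3:54164929-54165028 (plus strand) for Postn, chr11:55233583-55233682 (minus strand) for Sparc, chr13:56710847-56710946 (plus strand) for Tgfbi and chr5:104864030-104864129 (plus strand) for Spp1, and each is printed 5′ to 3′ on the strand of its gene.
Postn: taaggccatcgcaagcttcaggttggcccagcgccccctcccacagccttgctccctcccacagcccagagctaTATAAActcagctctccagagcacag
Sparc: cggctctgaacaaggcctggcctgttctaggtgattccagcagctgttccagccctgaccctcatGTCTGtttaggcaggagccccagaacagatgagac
Tgfbi: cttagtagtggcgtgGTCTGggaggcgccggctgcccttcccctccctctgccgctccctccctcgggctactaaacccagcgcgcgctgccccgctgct
Spp1: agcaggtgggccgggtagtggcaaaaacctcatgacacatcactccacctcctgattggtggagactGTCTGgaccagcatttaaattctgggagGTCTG
The CAGAC letters were found in Sparc (1 match), Tgfbi (1 match) and Spp1 (2 matches), that is, before a gene that rose and before both that fell, and in 18.8% of all 32851 promoter windows of this length. Postn had a TATAAA 26 bases before the start (5.56% of all windows), and none of the 4 windows had TGAGTCA (1.88% of all windows). These matches describe the letters only.

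Fibronectin (Fn1, mm9 chromosome 1, 71632094 to 71699774, minus strand, 45 exons in the transcript named) was the third most abundant of the 10 genes in Control cells and the second with TGF-β1. It measured 343, 356 and 459 FPKM in the Control libraries and 3157, 3222 and 3021 FPKM in the TGF-β1 libraries. The lowest TGF-β1 library was thus far above the highest Control library. The mean rose from 386 ± 63.4 to 3134 ± 103 FPKM (SD, n = 3), which is 8.12-fold. On the log2(FPKM + 1) scale the change was 3.03 (SE 0.135, limma adjusted p 2.55e-05), the 71st largest increase of 11898 tested rows. By level, Fn1 moved from rank 201 to rank 24 of the 15913 protein-coding rows (300 nt or longer). The gene overlaps Apol7d on the opposite strand in the annotation, and whether strand was used is not stated. Over the 6 libraries, the rows with the most similar pattern on the log2 scale were Gpt2, Mllt11 and Mical2 (Pearson's r of 0.9997, 0.9994 and 0.9993, of 6688 rows with a mean of at least 10 FPKM). All 6 points share the 2 groups, so such values mainly describe the same group difference. Gpt2, an alanine aminotransferase, was at 8.31 FPKM in Control and 17.9 FPKM with TGF-β1.

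Periostin (Postn) and TGF-β-induced protein (Tgfbi) are the related members built of fasciclin domains, both secreted adhesion proteins that bind integrins and collagen, and they went in opposite directions. Postn (mm9 chromosome 3, 54165031 to 54194961, plus strand, 22 exons) measured 9.17, 7.30 and 10.8 FPKM in Control and 229, 258 and 229 FPKM with TGF-β1. Its mean rose 26.3-fold, from 9.09 ± 1.74 to 239 ± 16.6 FPKM (SD, n = 3). This was the 14th largest increase of all tested rows on the log2 scale (4.58, SE 0.140, limma adjusted p 7.86e-06) and the largest of the 10 genes, and every TGF-β1 library was above every Control library.

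Tgfbi (mm9 chromosome 13, 56710920 to 56740923, plus strand, 17 exons) was named for its induction by TGF-β in another cell type. Here it was low and fell, with 2.66, 4.11 and 3.46 FPKM in Control and 0.504, 0.428 and 0.902 FPKM with TGF-β1. The groups did not overlap. The mean of 3.41 ± 0.725 FPKM was 5.58-fold higher in Control than the 0.611 ± 0.254 FPKM with TGF-β1 (SD, n = 3), and the log2 change was -1.45 (SE 0.181, limma adjusted p 0.00116). With a pseudocount of 0.1 in place of 1 the log2 change was -2.34, since the larger value compresses low levels. At the recovered depth the Control values rest on about 81.5, 126 and 103 fragments and the TGF-β1 values on about 15.3, 12.0 and 27.0, so the counting error is a larger part of the TGF-β1 values than for the other 6 called genes.

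Because a ratio of 2 genes in the same library does not depend on how libraries are scaled, the balance of these relatives was compared within libraries. The ratio of Postn to Tgfbi was 3.44, 1.78 and 3.12 in the Control libraries and 455, 602 and 254 in the TGF-β1 libraries. Postn was thus above Tgfbi in all 6 libraries, and the distance between them widened with TGF-β1. The log2 ratio of Tgfbi to Postn moved from -1.42 ± 0.515 to -8.68 ± 0.635 (SD, n = 3), a difference of -7.27. A two-sided exact permutation test gave p = 0.1 (adjusted p 0.1 over the 2 ratios computed), the smallest value that 3 against 3 libraries allow. Of 4 ratios planned, the 2 with Thbs2 were not computed because Thbs2 was listed at 0 in a library.

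**Figure D2:**
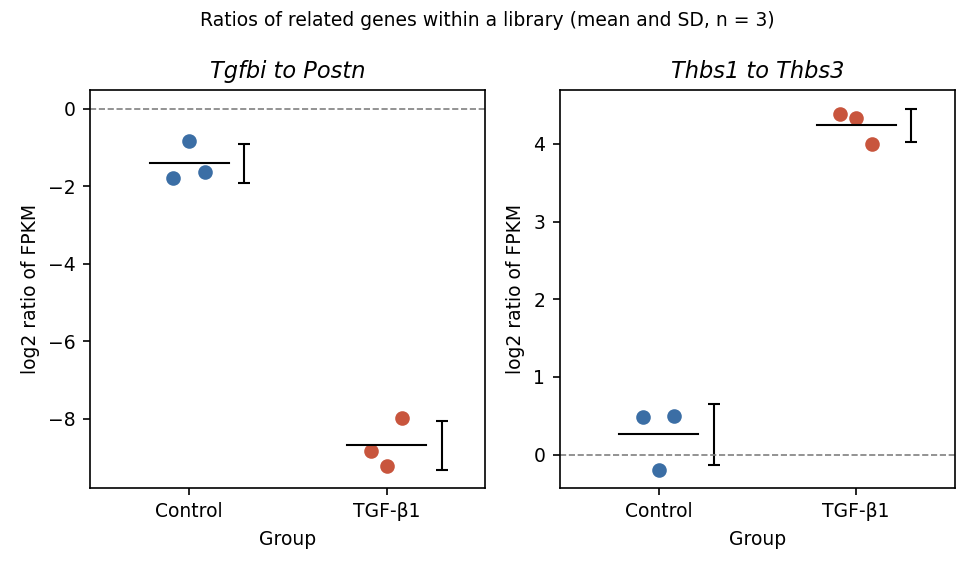
log2 ratio of FPKM within each library, for Tgfbi to Postn (left) and Thbs1 to Thbs3 (right), in Control (blue) and TGF-β1 (red) libraries; horizontal bars are means and error bars SD of 3, and the dashed line marks equal levels. The Tgfbi to Postn ratio fell from a mean of -1.42 to -8.68, and the Thbs1 to Thbs3 ratio went from 0.26 to 4.24.

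The thrombospondins are multimeric glycoproteins that bind calcium, and thrombospondin 1 is known to activate latent TGF-β. Thbs1 (mm9 chromosome 2, 117937612 to 117952869, plus strand, 22 exons) measured 18.1, 17.9 and 18.5 FPKM in Control, the narrowest spread of the 10 genes, with a coefficient of variation of 1.89%. In the TGF-β1 libraries it measured 213, 238 and 210 FPKM. It rose 12.1-fold, from 18.2 ± 0.343 to 221 ± 15.2 FPKM (SD, n = 3), with no overlap between the groups (log2 change 3.53, SE 0.0781, limma adjusted p 3.26e-06). This was the 45th largest increase of all tested rows.

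Thbs3 (mm9 chromosome 3, 89019102 to 89030759, plus strand, 23 exons) lacks the domain through which thrombospondin 1 activates TGF-β. It measured 13.0, 20.5 and 13.1 FPKM in Control and 10.2, 11.8 and 13.2 FPKM with TGF-β1, and the groups overlapped. The log2 change was -0.36, with a 95% confidence interval of -0.82 to 0.11 (limma adjusted p 0.173). Control replicate 2 stood above the other 5 libraries, and without it the change was -0.15. The gene overlaps Mtx1 on the opposite strand. In Control cells Thbs1 and Thbs3 were at similar levels, with Thbs1 to Thbs3 ratios of 1.39, 0.873 and 1.41. With TGF-β1 the ratio was 21.0, 20.2 and 16.0, a difference of 3.98 on the log2 scale (exact two-sided permutation p = 0.1, adjusted p 0.1, the smallest possible).

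Thbs2 (mm9 chromosome 17, 14802507 to 14831269, minus strand, 22 exons), a thrombospondin that inhibits angiogenesis and does not activate latent TGF-β, was at the limit of detection. Control replicates 1 and 3 held 0.0475 and 0.0649 FPKM and replicate 2 was listed at 0, beside 0.0956, 0.107 and 0.0502 FPKM with TGF-β1. These values correspond to about 3, 0 and 4 fragments in Control and 6, 6 and 3 fragments with TGF-β1, so no fold is given. In the same limma fit on all 19730 rows, in which 30.5% of rows were called in either direction and 16.0% were called lower, its adjusted p was 0.349. A difference was not detectable at this depth.

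The tenascins are large matricellular glycoproteins with repeats of fibronectin type III domains. Tenascin C (Tnc, mm9 chromosome 4, 63620819 to 63681760, minus strand, 25 exons) appears in healing wounds and fibrosis. It measured 114, 112 and 146 FPKM in Control and 253, 291 and 237 FPKM with TGF-β1, without overlap. The mean rose 2.10-fold, from 124 ± 19.2 to 260 ± 27.4 FPKM (SD, n = 3). This was the smallest of the 5 increases, at 1.07 on the log2 scale (SE 0.137, adjusted p 0.00127 by limma). Its gene overlaps the long non-coding RNA gene 8030451A03Rik on the opposite strand. Tenascin XB (Tnxb, mm9 chromosome 17, 34807480 to 34856760, plus strand, 42 exons), which organises collagen fibrils in connective tissue, was close to 0 in both groups. Its Control values were 0.0790, 0.0279 and 0.0388 FPKM. With TGF-β1, replicate 2 held 0.0107 FPKM and the other 2 libraries were listed at 0. The TGF-β1 libraries lay below the Control libraries, but the highest Control value is about 10.6 fragments and the only TGF-β1 value above 0 is about 1.32 fragments. In the fit on all rows it was not called (limma adjusted p 0.253). The pseudocount of 1 compresses such low levels toward no change, so this fit could hardly detect a fall. With a pseudocount of 0.1 the log2 change of Tnxb was -0.51 (limma adjusted p 0.158). The paper, which used DESeq on counts, lists Tnxb as downregulated. The gene overlaps a pseudogene of Cyp21a2 and a U6 gene on the opposite strand.

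SPARC, also called osteonectin, is a collagen-binding glycoprotein that acts in fibril assembly. Sparc (mm9 chromosome 11, 55208002 to 55233582, minus strand, 10 exons) measured 2432, 2344 and 2020 FPKM in Control and 5539, 5870 and 5055 FPKM with TGF-β1, with every TGF-β1 library above every Control library. It rose 2.42-fold, from 2266 ± 217 to 5488 ± 410 FPKM (SD, n = 3), or 1.28 on the log2 scale (SE 0.132, adjusted p 5.26e-04 by limma). Already at rank 25 of 15913 protein-coding rows in Control, it reached rank 8 with TGF-β1 and was the most abundant of the 10 genes there.

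Osteopontin (Spp1, mm9 chromosome 5, 104864137 to 104870069, plus strand, 7 exons) is a secreted phosphoprotein that binds integrins and CD44 and attracts macrophages. It was the most abundant of the 10 genes in Control cells, at rank 5 of the protein-coding rows, and at rank 52 with TGF-β1. It measured 5740, 5503 and 5072 FPKM in Control and 1603, 1828 and 1714 FPKM with TGF-β1, so that even the lowest Control library was far above every TGF-β1 library. The mean of 5438 ± 339 FPKM in Control was 3.17-fold higher than the 1715 ± 113 FPKM with TGF-β1 (SD, n = 3), and the log2 change was -1.66 (SE 0.117, limma adjusted p 1.27e-04). Macrophages also express Spp1, and the summed level of the 5 macrophage markers in the table, of 6 listed, was 87.0 to 114 FPKM in Control and 9.03 to 11.3 FPKM with TGF-β1. Most of this was Cd14 (94.3 and 7.71 FPKM), and Csf1r fell from 6.27 to 0.411 FPKM, while Cd68 was not called (2.79 and 2.22 FPKM). Ptprc, which marks leukocytes, averaged 0.0289 FPKM with TGF-β1 and had 0 in all 3 Control libraries, near the limit of detection in both groups. The part of these markers in the fall of Spp1 was not tested.

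**Figure D3:**
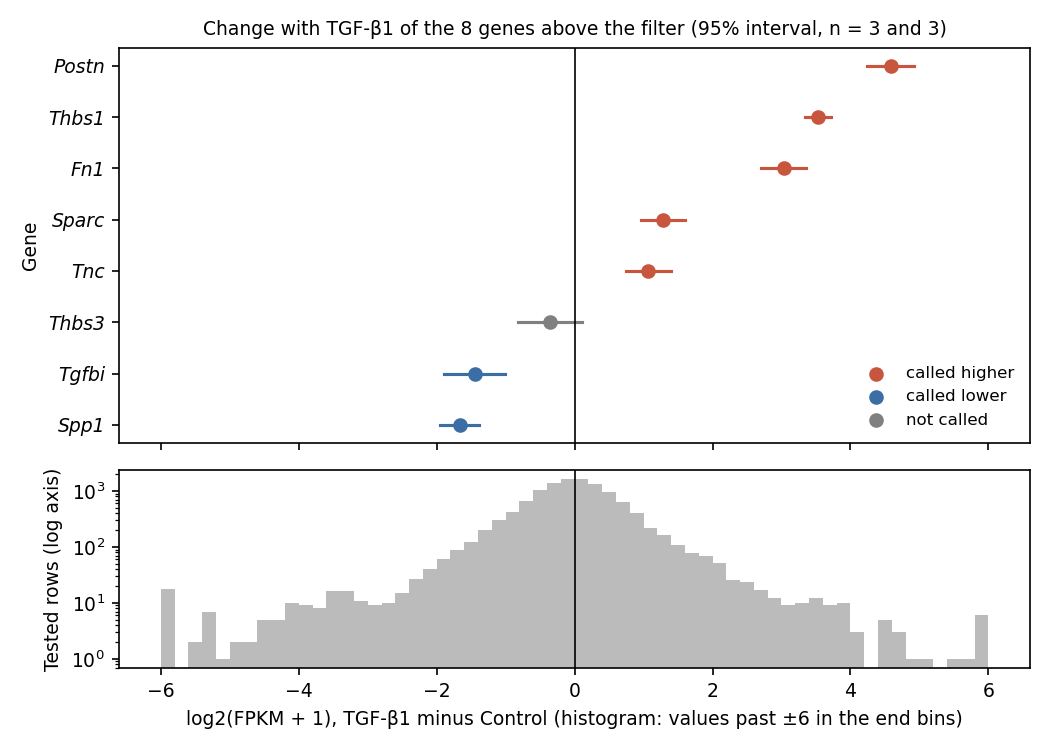
Top, change in log2(FPKM + 1) (TGF-β1 minus Control) of the 8 genes with a mean of at least 1 FPKM, with 95% confidence intervals (3 libraries a group), coloured by call; bottom, the number of tested rows (log axis) at each change, on the same horizontal axis. Postn (4.58), Thbs1 (3.53) and Fn1 (3.03) lie in the sparse upper tail, Sparc (1.28) and Tnc (1.07) nearer the bulk, and the interval of Thbs3 includes 0.

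The order of the 10 genes by level changed accordingly. In Control the order was Spp1, Sparc, Fn1, Tnc, Thbs1, Thbs3, Postn, Tgfbi, Tnxb and Thbs2. With TGF-β1 it was Sparc, Fn1, Spp1, Tnc, Postn, Thbs1, Thbs3, Tgfbi, Thbs2 and Tnxb. Among neighbours in that order, Thbs1 (17.9 to 18.5 FPKM) and Thbs3 (13.0 to 20.5 FPKM) overlapped in Control, as did Tnxb and Thbs2. With TGF-β1, Tnc (237 to 291 FPKM) overlapped Postn (229 to 258 FPKM), which overlapped Thbs1 (210 to 238 FPKM).

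Per length, Spp1 made up 65.8% ± 0.346 (SD, n = 3) of the summed FPKM of the 10 genes in Control and 15.5% ± 0.897 with TGF-β1. Sparc went from 27.4% ± 1.12 to 49.5% ± 1.15, and Fn1 from 4.71% ± 1.06 to 28.3% ± 0.731. Postn went from 0.111% to 2.16% and Thbs1 from 0.221% to 1.99%, and the ranges of these 5 genes did not overlap between groups. The 10 genes together were 1.39% to 1.48% of the FPKM of those 15913 protein-coding rows in Control and 1.61% to 1.81% with TGF-β1. Their share of this summed FPKM therefore changed much less than their makeup. The share is per length, and does not give the change of their total in fragments, in which long transcripts weigh more. In replicate 1, Fn1 (8043 nt) held about 29726 fragments in Control and 271694 with TGF-β1. Spp1 (1410 nt) held about 76811 and 21296.

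**Figure D4:**
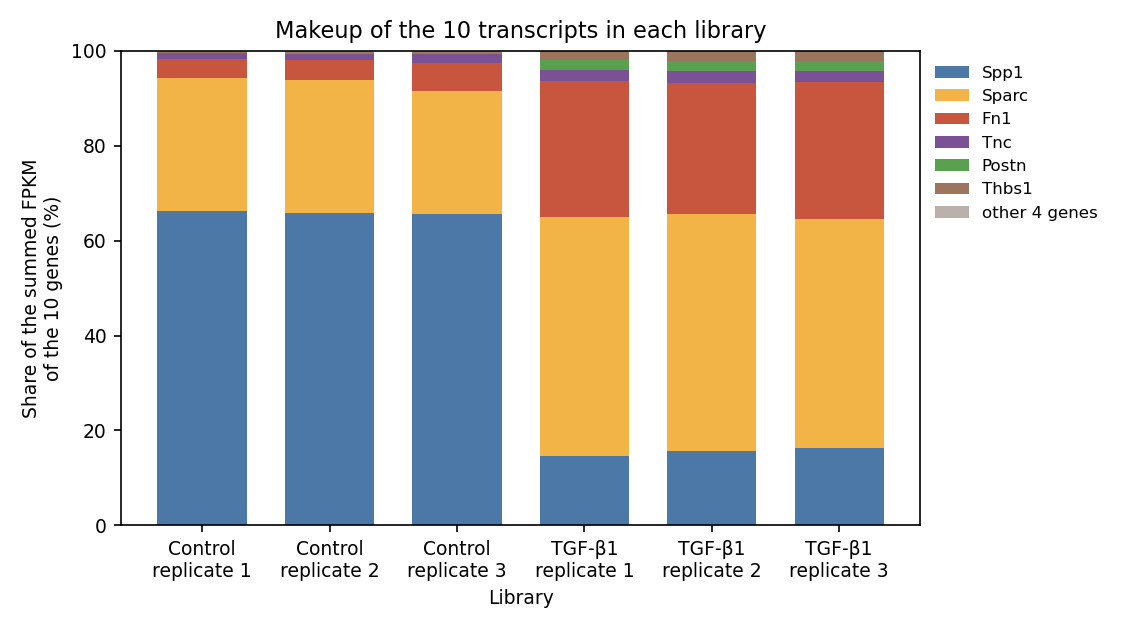
Share (%) of each gene in the summed FPKM of the 10 genes, in each of the 6 libraries; Thbs3, Tgfbi, Thbs2 and Tnxb are drawn together as the other 4 genes. Spp1 takes 65.5% to 66.2% of the bar in Control and 14.6% to 16.4% with TGF-β1, and Fn1 takes 3.95% to 5.92% and 27.5% to 28.8%.

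Other genes of the same system were taken from lists of receptors, sequence relatives and binding partners. Of 17 receptor genes, 10 were tested, 5 were called higher, 1 was called lower and 4 were not called. Among all tested rows, 24.5% were called higher and 23.6% were called lower. The median log2 change was 0.40 for the tested receptors, against -0.02 for all tested rows. Itga5 and Itgb1, the chains of the main fibronectin receptor, rose from 25.9 ± 1.90 to 168 ± 15.3 FPKM and from 259 ± 9.96 to 1026 ± 16.4 FPKM (SD, n = 3, limma adjusted p 1.47e-05 and 1.82e-05). Itgb3, which pairs with αv to bind fibronectin, osteopontin and periostin, rose from 1.57 to 8.44 FPKM. Cd44, a receptor for hyaluronan and osteopontin, rose from 25.1 to 91.7 FPKM. Sdc4, a heparan sulfate coreceptor for fibronectin, was the tested receptor that fell, from 55.7 to 30.0 FPKM. Itgav (20.0 and 26.4 FPKM) and Cd47, a thrombospondin receptor (43.4 and 44.7 FPKM), were not called, and Cd36, another thrombospondin receptor, was below 0.01 FPKM on average in both groups.

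Of 17 relatives by sequence family, 10 had a row, 2 were tested and both were called higher, beside 24.5% of all tested rows. These were Fstl1 (219 to 444 FPKM) and Smoc2 (2.08 to 6.63 FPKM), which share domains with Sparc. Of 18 binding partners and modifying enzymes, 17 were tested, 13 were called higher, 2 were called lower and 2 were not called (median log2 change 1.15). Of all tested rows, 24.5% were called higher and 23.6% lower, with a median log2 change of -0.02. Col1a2, counted among the 13, had a mean under 1 FPKM in Control and passed the filter only through its TGF-β1 libraries. Tgm2, also counted there, was barely under the threshold (limma adjusted p 0.0499). The 4 partners or enzymes with the largest changes were Dcn, Adamts1, Fbln2 and Bgn. Fbln2, a fibulin that binds fibronectin, rose from 80.6 ± 5.59 to 943 ± 34.2 FPKM, and Bgn, the proteoglycan biglycan, from 7.53 to 59.8 FPKM. Decorin (Dcn), a relative of biglycan that binds collagen and TGF-β, fell from 104 ± 1.92 to 3.30 ± 0.472 FPKM, and Adamts1, a protease of matrix proteoglycans, from 147 to 8.56 FPKM (limma adjusted p 2.69e-06 and 3.82e-06). The list holds collagens and other genes already known to respond to TGF-β, so its count is a description.

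**Figure D5:**
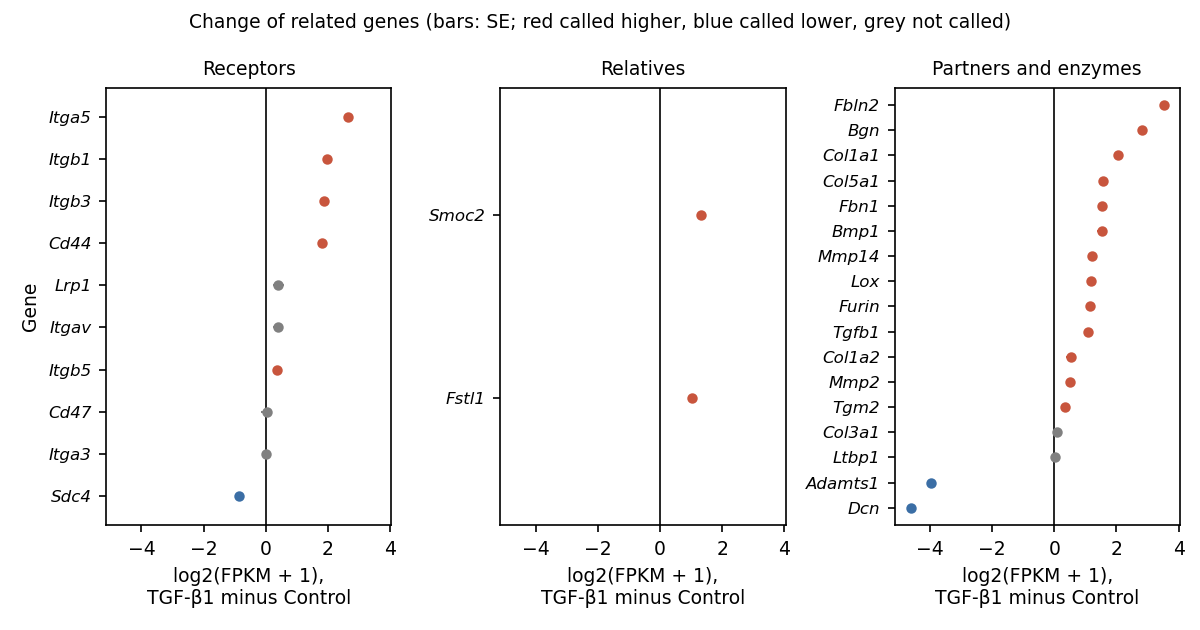
Change in log2(FPKM + 1) (TGF-β1 minus Control) of the tested genes of 3 lists: receptors, relatives by sequence family, and binding partners and modifying enzymes; bars are SE from limma, and red, blue and grey mark genes called higher, called lower and not called. Itga5 (2.65) and Fbln2 (3.53) had the largest increases in their lists, and Dcn (-4.62) and Adamts1 (-3.95) the largest decreases.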

How the data were processed

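RNA-Seq was performed on total RNA from 3 Control and 3 TGF-β1 libraries (Illumina HiSeq). According to the methods and the submitters' processing notes, reads of low quality were discarded and the authors aligned those remaining to mm9 with TopHat (TopHat2 2.0.11 in the notes, while the methods give another version), then estimated FPKM with Cufflinks. The deposited table gives FPKM for each library, and no further scaling is described. DESeq was the authors' test, and counts were not used here. In genes with several transcripts, 99.6% of rows were named by the transcript that starts leftmost (GENCODE M1, mm9). In protein-coding genes with at least 5 transcripts, the median was 11.3 FPKM where that transcript was coding and 10.9 where it was not. Whether a row holds its gene or the named transcript is not stated.

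Low FPKM values (under 0.3, single-transcript coding genes of at least 800 nt, assumed fragment length 200 nt) were whole multiples of 1 fragment, within 0.1, in 99.4% to 99.9% of values per library. Differential expression was tested with limma 3.58.1 (R 4.3.3, lmFit, eBayes with trend, two-sided) on log2(FPKM + 1) with Benjamini-Hochberg adjustment over rows with a mean of at least 1 FPKM. Tnxb and Thbs2, under this filter, were taken from the same fit on all rows. The test was checked on simulated data. Ratios were compared with exact permutation tests (scipy 1.17.1). Figures were drawn with matplotlib 3.10.9.

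The genes, lists and tests were chosen with earlier results of these data known. Besides the 10 genes, the named genes were the treatment checks, the markers, up to 4 called genes per list with the largest change, and the 3 rows most like Fn1. Sdc4, Itgav, Cd47, Cd36, Col1a2 and Tgm2 were named after their values were seen. Single genes of the check and marker lists that are not named are not reported here.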

Additional observations from a re-analysis of the deposited data

How the results depend on the processing

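The 8 tested genes were refitted under 18 alternatives (pseudocount, filter, 3 scalings, trend, replicate terms, GC content and length, and each library left out), 17 for Tgfbi. The 5 increases and the decreases of Spp1 and Tgfbi kept direction and call in each, with a highest adjusted p of 0.0173, for Tnc in replicates 1 and 3. Thbs3 was not called in any (adjusted p 0.0659 to 0.449). A filter at a mean of 3 FPKM left 1 gene called lower, because Tgfbi was no longer tested. Without a filter, 3 receptors (1 with it) and 2 relatives were called lower, because more rows were tested. Partners and enzymes called higher numbered 13, against 12 without a filter, 11 with the protein-coding sum and 11 with the replicate block, and receptors called higher were 4 with that sum and 6 with the block in place of 5. With each library left out in turn, 5 genes were called higher and 2 lower every time, and the log2 ratio difference of Tgfbi to Postn was -7.61 to -6.97 and that of Thbs1 to Thbs3 was 3.75 to 4.10. With FPKM + 1 in the ratio, the first was -6.04. The replicate block, a term for the shared replicate number, gave 5391 rows called in place of 5721 and left 5 genes higher and 2 lower, with an adjusted p of 0.00482 for Tgfbi and 0.0016 for Spp1. Deviations of same-numbered libraries from their group means correlated across genes at 0.0921, 0.232 and 0.0853. Pairs with different numbers ranged from -0.194 to 0.117. The highest of these was Control replicate 1 with TGF-β1 replicate 3, and the others were negative. The study's methods describe no pairing, so the main fit assumed none and the replicate block stands as an alternative. Tnxb and Thbs2 rest on about 11 fragments or fewer per library, and log2(FPKM + 1) compresses such levels. These fits therefore could not resolve a change of either, although Tnxb lay lower in every TGF-β1 library. Both were left out of the GC and length fits.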

Other observations

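Several relatives and receptors lay under the filter on low values. In the limma fit on all rows, 16.0% of the 19730 rows were called lower. That share also covers the rows above the filter, of which 23.6% were called lower in the main fit. The share among rows under the filter alone was not computed. Of 16 genes of the 3 related lists with a mean under 1 FPKM, 5 were called lower in the fit on all rows. They were the integrin chains Itga4 (0.820 ± 0.152 against 0.324 ± 0.0888 FPKM, Control first, SD, n = 3, adjusted p 0.0141) and Itgb6 (0.212 and 0.0143 FPKM, adjusted p 0.0053), the tenascin relative Tnn (0.360 and 0.0848 FPKM, adjusted p 0.00819), the Sparc relative Smoc1 (1.02 and 0.552 FPKM, adjusted p 0.0149) and the fibulin Fbln1 (0.769 and 0.373 FPKM, adjusted p 0.035). Smoc1 and Smoc2 thus moved in opposite directions, as did Fbln1 and Fbln2. Whether relatives differed in their change was not tested. The genes were singled out after their values were seen.

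Among the pericyte markers under the filter, Cspg4 rose from 0.0735 ± 0.0367 to 1.21 ± 0.257 FPKM (limma fit on all rows, adjusted p 9.51e-04), while Pdgfrb, which passed the filter, fell by 0.34 on the log2 scale (adjusted p 0.0396).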
